A study of Mus musculus with 2 samples.

Results

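The genes described here are 43 components of the Wnt signalling pathway, looked up by symbol among the 21938 protein-coding genes of the mouse annotation. They comprise 19 ligands, 12 receptors and co-receptors, 7 secreted inhibitors and 5 effectors, and all 43 were found. Their accessible sites were taken from DNase-seq of the embryonic mouse retina, an assay in which the enzyme DNase I cuts open chromatin so that open sites, promoters and enhancers among them, appear as peaks. A peak marks open chromatin and does not show that the site is active. There was 1 group of samples, retina of embryos of the strain B6NCrl at embryonic day 14.5, with pooled sexes and no treatment or transgene, in 2 biological replicates. The replicates are separate biosamples that share a donor label, and nothing in the labels gives the number of embryos pooled. There was thus no contrast between conditions, so the 4 classes are set beside each other and beside all protein-coding genes as descriptions, without tests. Where values come in pairs below, replicate 1 is followed by replicate 2.

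Wnt ligands are lipid-modified secreted proteins that bind Frizzled receptors. In the canonical branch they also engage the co-receptors Lrp5 and Lrp6, which leads to accumulation of beta-catenin and, in the nucleus, to activation of genes bound by TCF/LEF factors. Secreted frizzled-related proteins (Sfrp1, Sfrp2, Sfrp4, Sfrp5 and Frzb) bind Wnt ligands outside the cell, while Dkk1 and Dkk2 bind the Lrp co-receptors. In the developing eye the canonical branch is known for its role in the pigment epithelium and at the peripheral margin of the optic cup, and Frizzled receptors also act in progenitors of the neural retina and in the retinal vessels.

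The lists held 165269 and 219308 distinct peaks of 150 bp and 145732 and 183723 hotspots, which are the wider regions of enrichment that enclose the peaks. Each peak carries a deposited score between 1 and 150 whose meaning is not stated, so it was turned into a rank, the percentile of the peak among all peaks of its own library, with 100 the strongest. Promoters of the retinal progenitor markers were open in both libraries for 6 of 6 genes (Rax, Pax6, Six3, Six6, Lhx2 and Sox2) and those of the ganglion cell markers for 3 of 3. Among markers of other cells that the dissected tissue could hold, promoters were open in both libraries at 3 of 6 pigment epithelium genes, 2 of 4 lens genes, 3 of 3 ciliary margin genes, 4 of 5 periocular mesenchyme genes, 1 of 4 endothelial genes and 0 of 4 microglial genes. Of all protein-coding genes 68.8% were open in both libraries. The open lens promoters ranked low, at 32.3 and 14.7 for Cryba1 and 61.7 and 74.8 for Crygd. Rpe65, Tyr, Cryaa, Cryab, Col3a1, Cdh5, Tek, Pecam1, C1qb and Cx3cr1 had no promoter peak in either library. The observed-to-expected CpG ratio at their 5′ ends ran between 0.029 (Rpe65) and 0.389 (Cryab), against a median of 0.552 over all genes. Promoters poor in CpG are less often open, as described below, so these absences do not show which cells were lacking. The tissue was analysed in bulk, so a site open in few cells and a site weakly open in many cannot be told apart.

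Nearly all of the Wnt genes had an open promoter, and the classes differed in how strong it was. A promoter peak is one that overlaps the 1 kb on either side of any annotated transcription start site (TSS) of the gene. By this definition 40 of the 43 genes were open in replicate 1 and 40 in replicate 2, against 69.7% and 71.3% of all protein-coding genes. In both libraries 39 were open, against 68.8% of all genes, a share that is not matched for base composition, which is treated below. Strong promoters, those whose best peak ranked at least 90 in both libraries, were found at 18 of the 43 genes (41.9%), against 47.7% of all genes. They were divided unevenly, with 3 of 19 ligands, 9 of 12 receptors, 2 of 7 inhibitors and 4 of 5 effectors. The median promoter rank of the open genes was 81.1 and 83.1 in ligands, 96.5 and 97.5 in receptors, 87.0 and 91.1 in inhibitors and 95.4 and 95.9 in effectors, against 94.98 and 95.91 over all genes. The same gene's rank differed between the libraries by a median of 2.01 points over the open members and by at most 12.9 points, at Wnt6. The classes overlapped, since Wnt7b (94.0 and 96.1) ranked above Lrp5 (84.5 and 76.0) in both libraries.

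**Figure D1:**
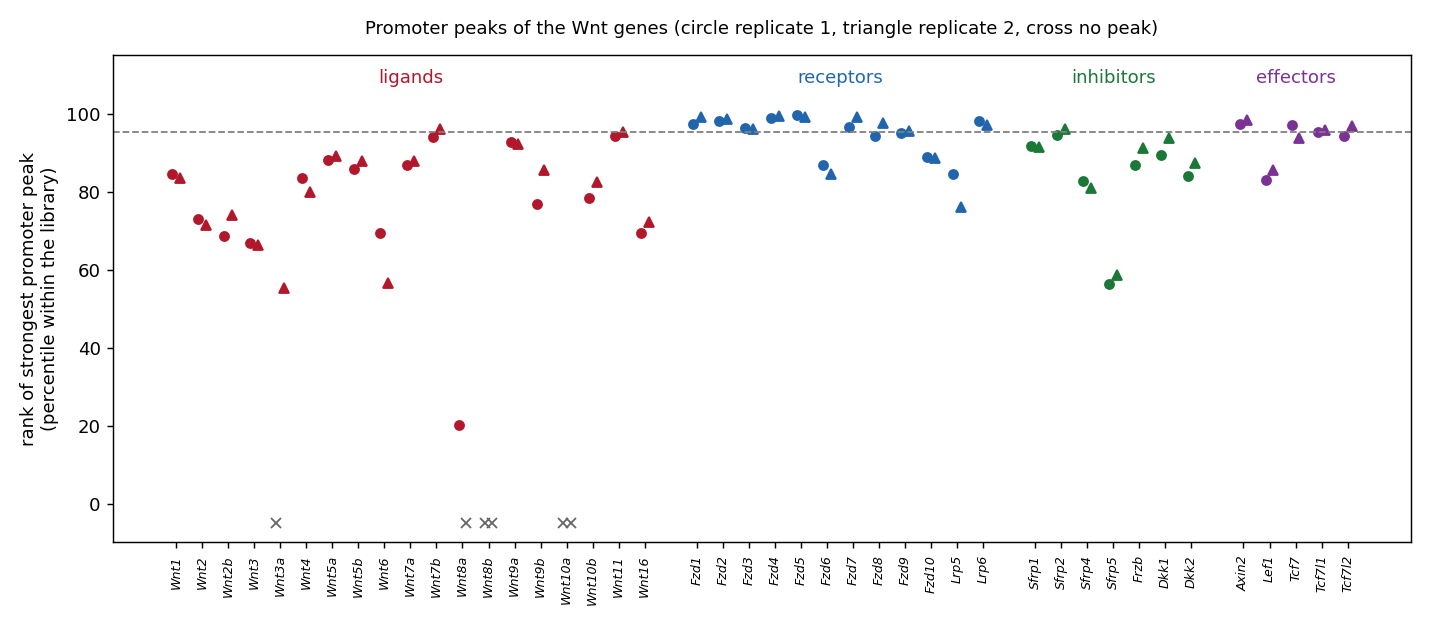
Rank of the strongest promoter peak (percentile within the library) of each of the 43 Wnt genes in both libraries, grouped by class, with the all-gene median as a dashed line drawn at the mean of the libraries. No ligand lies above the all-gene median in both libraries, while 7 of 12 receptors do.

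Among the ligands, 15 of 19 had a promoter peak in both libraries. The strongest were Wnt7b, Wnt9a and Wnt11. Wnt7b, a ligand of the canonical branch, had promoter scores of 102 and 126 at ranks 94.0 and 96.1. Wnt11, known for non-canonical signalling in cell movements, had scores of 103 and 123 at ranks 94.2 and 95.4. Wnt9a had scores of 96 and 111 at ranks 92.8 and 92.2. All 3 were above every other ligand in both libraries, and the replicate 2 value of Wnt7b was the single ligand value above the all-gene median of its library.

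A middle group of ligands lay between ranks of 76.9 and 89.1 in both libraries. Wnt5a, the main non-canonical ligand of many embryonic tissues, had ranks of 88.2 and 89.1, and Wnt7a had 87.0 and 87.8, with a peak that also lies in the promoter window of Gm30437. Wnt5b had ranks of 85.8 and 87.8, Wnt1 had 84.5 and 83.6, Wnt4 had 83.6 and 79.9, Wnt10b had 78.5 and 82.6 and Wnt9b had 76.9 and 85.5. The order of these genes changed between the libraries, so neighbours among them were not separated.

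The weakest of the promoters open in both libraries belonged to Wnt2, Wnt2b, Wnt3, Wnt6 and Wnt16. Wnt2b, a ligand expressed at the margin of the optic cup, had scores of 44 and 74 at ranks 68.6 and 74.1. Wnt2 had ranks of 73.1 and 71.5, Wnt3 had 66.9 and 66.3, Wnt16 had 69.5 and 72.2 and Wnt6 had 69.5 and 56.5. In these 5 genes the best promoter peak was thus weaker than that of the middle group in both libraries.

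The remaining 4 ligands were not open in both libraries. Wnt8b and Wnt10a had no promoter peak in either library, though both had one with a 2 kb window. Wnt3a, the ligand used most often to activate the canonical branch in culture, had none in replicate 1 and a single peak of score 52 and rank 55.4 in replicate 2. Wnt8a had a single peak of score 18 and rank 20.2 in replicate 1 and none in replicate 2. These calls have to be read against the base composition of the promoters, since promoters rich in CpG are open in most tissues. When all genes were put into 10 equal bins by the observed-to-expected CpG ratio within 500 bp of their 5′ end, 99.0% of the genes in the bin of Wnt3a (ratio 0.748) were open in both libraries, against 54.3% in the bin of Wnt8b (0.326) and Wnt10a (0.394) and 32.6% in that of Wnt8a (0.254). Wnt3a was therefore the one ligand without a peak in both libraries whose bin was open nearly throughout.

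All 12 receptors were open in both libraries. Fzd5, a Frizzled receptor that mouse genetics ties to eye development, had the strongest promoter of all 43 genes in replicate 1. Its scores were 134 and 140, at ranks 99.7 and 99.3, and the peak lay 180 bp from a TSS of the gene (chr1:64730558-64737751, minus strand). Fzd4, the receptor of Norrin in the retinal vasculature, had the strongest promoter in replicate 2, with scores of 127 and 141 at ranks 98.9 and 99.5. Its strongest promoter peak also lies in the promoter window of the protein-coding gene Tmem135, and the share of each cannot be separated. Fzd2 followed with ranks of 98.3 and 98.7, Lrp6 with 98.3 and 97.3, Fzd1 with 97.3 and 99.3, Fzd7 with 96.7 and 99.1 and Fzd3, known for axon guidance and planar polarity, with 96.3 and 96.1. These 7 of 12 genes were above the all-gene median in both libraries, against 45.4% of all genes open in both.

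Fzd8 and Fzd9 were close to that median, with ranks of 94.4 and 97.8 at Fzd8 and 95.2 and 95.7 at Fzd9. The weakest receptor promoters were those of Fzd10, Fzd6 and Lrp5. Fzd10 had ranks of 88.9 and 88.7 and Fzd6 of 87.0 and 84.6, and both peaks also lie in the promoter window of a neighbouring non-coding gene. Lrp5, the co-receptor that acts with Fzd4 in retinal vessels, had scores of 71 and 77 at ranks 84.5 and 76.0. The 2 co-receptors thus lay apart in both libraries, with Lrp6 near the top of the receptors and Lrp5 at the bottom.

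All 7 inhibitors were open in both libraries, 2 of them with strong promoters. Sfrp2 had scores of 105 and 126 at ranks 94.6 and 96.1, and Sfrp1 had 92 and 109 at ranks 91.8 and 91.5. Both are expressed in the optic cup of vertebrates. Dkk1, an antagonist of the Lrp co-receptors, had ranks of 89.6 and 93.7, Frzb had 87.0 and 91.1, Dkk2 had 84.1 and 87.4 and Sfrp4 had 82.7 and 81.0. Sfrp5 was the weakest, with scores of 33 and 55 at ranks 56.5 and 58.8, more than 20 points below the other inhibitors in both libraries.

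The 5 effectors were also open in both libraries. Axin2, a negative regulator of beta-catenin and a widely used target gene of the canonical branch, had scores of 119 and 136 at ranks 97.3 and 98.4. The repressor-type factor Tcf7l1 had ranks of 95.4 and 95.9, Tcf7l2 had 94.4 and 96.8 and Tcf7 had 97.1 and 93.7. Lef1, which acts mostly as an activator, stood apart with scores of 68 and 95 at ranks 83.2 and 85.5, below the other 4 in both libraries. That peak also lies in the promoter window of an antisense RNA, Gm43352, and the share of each cannot be separated.

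The hotspots around the strongest promoter peaks were narrower than the all-gene median at ligands and wider in the other 3 classes. Median hotspot width was 558.5 and 829 bp at ligands, 1556 and 2056 bp at receptors, 1237 and 1462 bp at inhibitors and 1892 and 1730 bp at effectors, against 1108 and 1391 bp over all open genes. Hotspots wider than the all-gene median in both libraries surrounded 4 of 15 ligands, 9 of 12 receptors, 4 of 7 inhibitors and 4 of 5 effectors, against 42.9% of all genes open in both. The widest receptor hotspots were those of Fzd8, at 4409 and 4754 bp, and Fzd5, at 4516 and 4569 bp. Wnt5a had the widest hotspot among ligands, at 2755 and 4123 bp. The deposited −log10 false discovery rate reached its ceiling of 100 at 8 and 13 of the 16 open ligands, at all 12 receptors, at 6 of 7 inhibitors and at all 5 effectors in each library, against 90.05% and 92.4% of all open genes. Sfrp5 was the inhibitor below the ceiling, at 4.54 and 4.82, and Wnt1 was among the ligands below it in both libraries, with 5.30 in replicate 2.

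**Figure D2:**
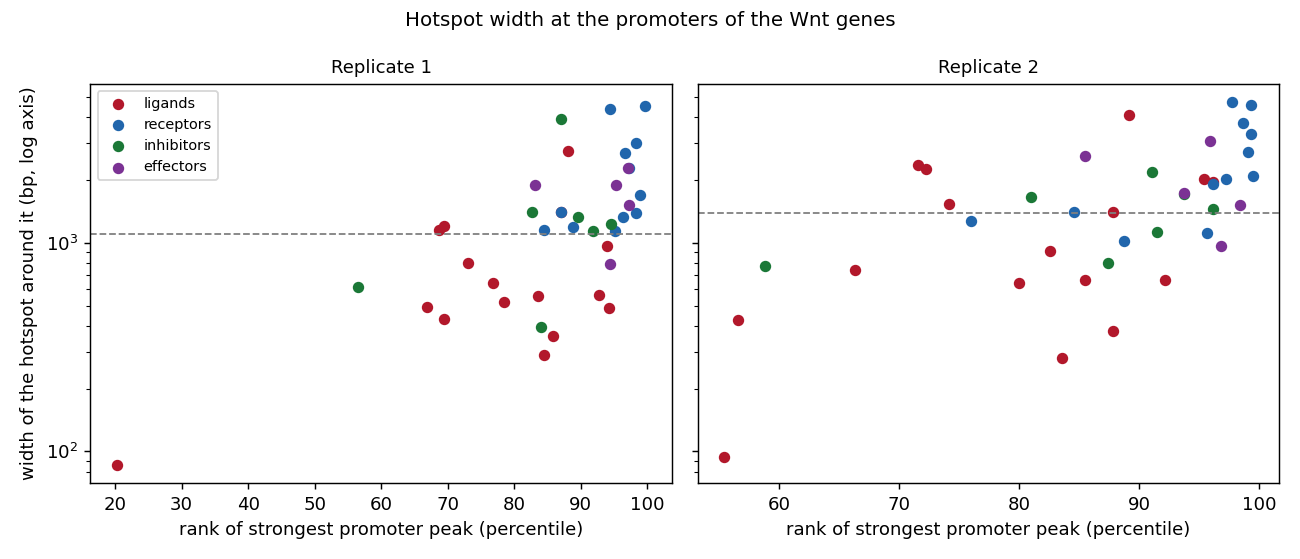
Width of the hotspot around the strongest promoter peak (bp, log axis) against the rank of that peak, for each open Wnt gene in each library, with the all-gene median width as a dashed line. Receptors lie at high rank and mostly at wide hotspots, and ligands reach down to hotspots of 86 bp in replicate 1, at Wnt8a.

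Promoter ranks were also compared among genes of similar CpG content. The median CpG ratio was 0.654 at ligands, 0.852 at receptors, 0.605 at inhibitors and 0.832 at effectors, against 0.552 over all genes. Over the 43 genes it was 0.753. The share of all genes open in both libraries rose with this ratio, from 8.84% in the lowest bin to 99.2% in the highest. The 68.8% set beside the 39 open Wnt genes is thus not matched for CpG content. Compared with the median rank of the open genes in its own CpG bin, 1 ligand of the 15 open in both libraries was above in both and 14 were below in both. Of the receptors, 4 were above in both libraries and 5 below, of the inhibitors 1 above and 6 below, and of the effectors 1 above and 3 below. Over all genes 43.5% of those open in both libraries were above the median of their bin in both.

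Away from promoters, every Wnt gene had at least 2 peaks nearby in each library. Peaks that were over 1 kb from the TSS of any gene are called distal here, and each was given to whichever protein-coding gene had the closest TSS, which need not be the gene it acts on. The 43 genes received 549 and 699 distal peaks. The median was 7 and 9 per ligand, 12 and 16 per receptor, 13 and 13 per inhibitor and 25 and 35 per effector, against 2 and 2 over all genes. At least 20 distal peaks in both libraries were found at 6 of the 43 genes, against 6.35% of all genes. These were Tcf7l2 with 54 and 83, Lef1 with 34 and 48, Fzd8 with 32 and 38, Tcf7l1 with 25 and 35, Axin2 with 22 and 23 and Sfrp1 with 20 and 26. Sfrp4, with 2 in each library, and the neighbours Wnt3 (2 and 3) and Wnt9b (3 and 2) had the fewest.

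A count of this kind grows with the stretch of genome that lies closest to a gene. That stretch had a median length of 64.8 kb at ligands, 88.6 kb at receptors, 171 kb at inhibitors and 208 kb at effectors, against 45.1 kb over all genes. Per 100 kb of it, pooled over each class, there were 9.58 and 12.1 distal peaks at ligands, 8.0 and 10.6 at receptors, 7.63 and 8.41 at inhibitors and 11.3 and 15.4 at effectors, against 4.39 and 6.10 over the genome. The inhibitor value of replicate 1 was raised by Frzb, which gave 41 of 107 peaks, mostly weak ones. Its own density was 43.8 and 13.9 per 100 kb, and the other inhibitors together gave 66 and 105 peaks. The density was above the genome average in both libraries at 37 of the 43 genes, against 35.3% of all genes, among them 17 ligands, 9 receptors, 6 inhibitors and all 5 effectors. Dkk2 was the one gene below it in both, with 13 and 25 peaks in 532 kb. Among the 4 Wnt classes the ligands had the lowest median count and the shortest stretches. Their pooled density was above that of the receptors in both libraries, but the median density per gene was above it in replicate 1 only. That median was 10.17 and 10.96 per 100 kb at ligands, against 8.94 and 11.94 at receptors. Ligands and receptors were thus not separated by density.

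**Figure D3:**
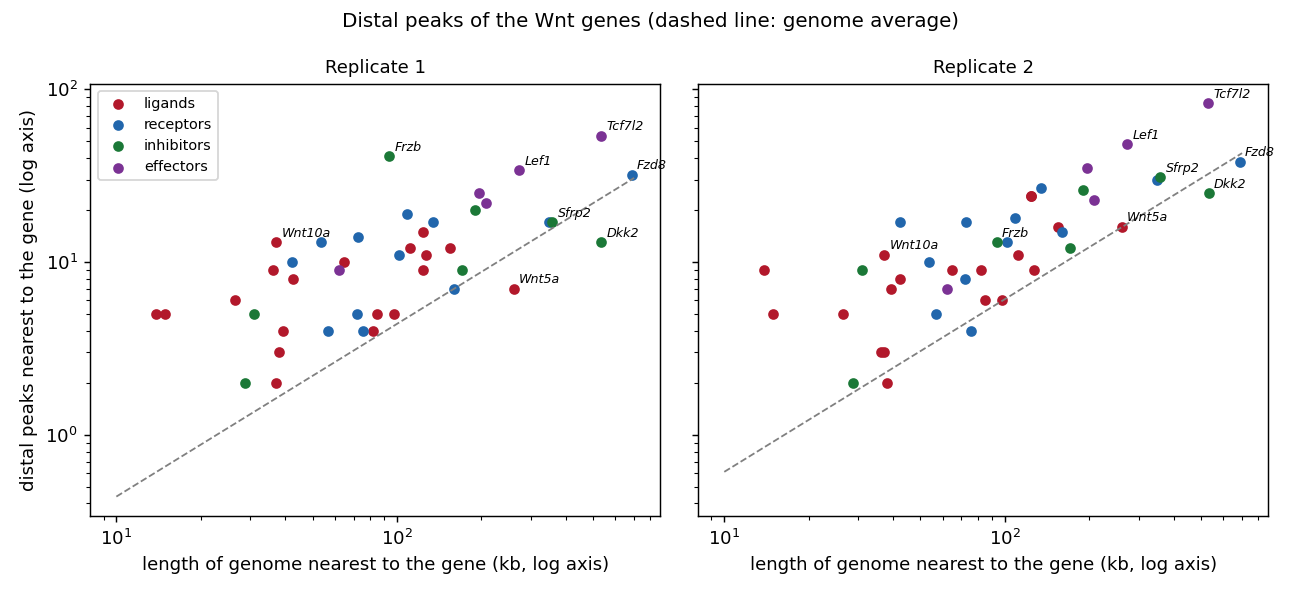
Number of distal peaks nearest to each Wnt gene against the length of genome nearest to it (kb), both on log axes, in each library, with the genome-average density as a dashed line. Most genes lie above the line in both libraries, and Frzb stands well above its neighbours in replicate 1 with 41 peaks but not in replicate 2 with 13.

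Distal peaks near ligands and near effectors ranked higher than distal peaks at large. The median rank was 56.5 and 56.5 at ligands, 45.5 and 46.7 at receptors, 20.2 and 46.0 at inhibitors and 52.4 and 57.1 at effectors, against 43.2 and 44.4 over all distal peaks. Ligand distal peaks also lay nearer to a TSS, at a median of 8454 and 10304 bp, against 26618 and 30965.5 bp over all distal peaks. At effectors that distance was 37240 and 45866 bp. Ranks of at least 90 were reached by 11 of 145 and 20 of 183 distal peaks of ligands (7.59% and 10.9%), 5 of 153 and 9 of 202 of receptors, 1 of 107 and 2 of 118 of inhibitors and 3 of 144 and 5 of 196 of effectors, against 3.33% and 4.55% of all distal peaks. A peak of the other library overlapped 365 of 549 (66.5%) and 361 of 699 (51.6%) of the distal peaks of the 43 genes, against 71.2% and 49.9% of all distal peaks. Without Frzb, which is described below, the shares were 70.9% and 51.6%. At Wnt16 the libraries had no distal peak in common, with 5 and 6 peaks of median rank 10.3 and 10.8. At Wnt1 all 5 peaks of each library were shared, with median ranks of 73.8 and 81.0.

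Wnt10a had no peak within 1 kb of a TSS but strong sites further away. It received 13 and 11 distal peaks within 37.2 kb, of which 10 and 10 were shared, and their median rank was 76.9 and 85.5. Wnt8b, also without a promoter peak, received 10 and 9 distal peaks, of which 9 and 9 were shared, with median ranks of 57.9 and 69.4. The absence of a promoter peak depended on the window at both genes. With a 2 kb window both were open in both libraries, so that the count of such ligands was 17 in place of 15. Their best peaks then lay 1288 and 1328 bp from a TSS at Wnt10a, with ranks of 80.7 and 85.5, and 1670 and 1630 bp from one at Wnt8b, with ranks of 78.5 and 83.6. These near sites are counted among the distal peaks here, and distal peaks may act on other genes.

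Several ligand genes are neighbours, and the space between them held peaks. Wnt3 and Wnt9b are 24.3 kb apart with 7 and 9 peaks between them, Wnt3a and Wnt9a 16.2 kb with 5 and 7, Wnt1 and Wnt10b 11.7 kb with 4 and 7 and Wnt6 and Wnt10a 6.19 kb with 1 and 1. No other protein-coding gene lies in between in any of these pairs. The promoter of Wnt9a was among the strongest of the ligands while that of its neighbour Wnt3a was closed in replicate 1.

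Among the effectors, Tcf7l1 had all of its 25 and 35 distal peaks inside its own gene. Tcf7l2 had 26 of 54 and 28 of 83 inside its gene, and the others spread up to 164 and 178 kb upstream of a TSS. At Lef1, 33 of 34 and 32 of 48 distal peaks lay upstream. Inside the Lef1 gene the libraries differed, with 1 distal peak in replicate 1 and 16 in replicate 2. The shared one, at chr3:131175916-131176065 in replicate 1, had scores of 55 and 86 at ranks 76.3 and 81.0, and the 15 found in replicate 2 alone had ranks between 31.7 and 66.3.

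Among the receptors, Fzd8 had peaks as far as 619 kb upstream in replicate 1, in the longest stretch of any of the 43 genes (686 kb), with low median ranks of 29.3 and 27.6. Fzd10 had 16 of 17 and 23 of 27 distal peaks upstream and none inside the gene. Lrp5 had 10 of 11 and 12 of 13 inside the gene, with median ranks of 62.9 and 67.1.

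**Figure D4:**
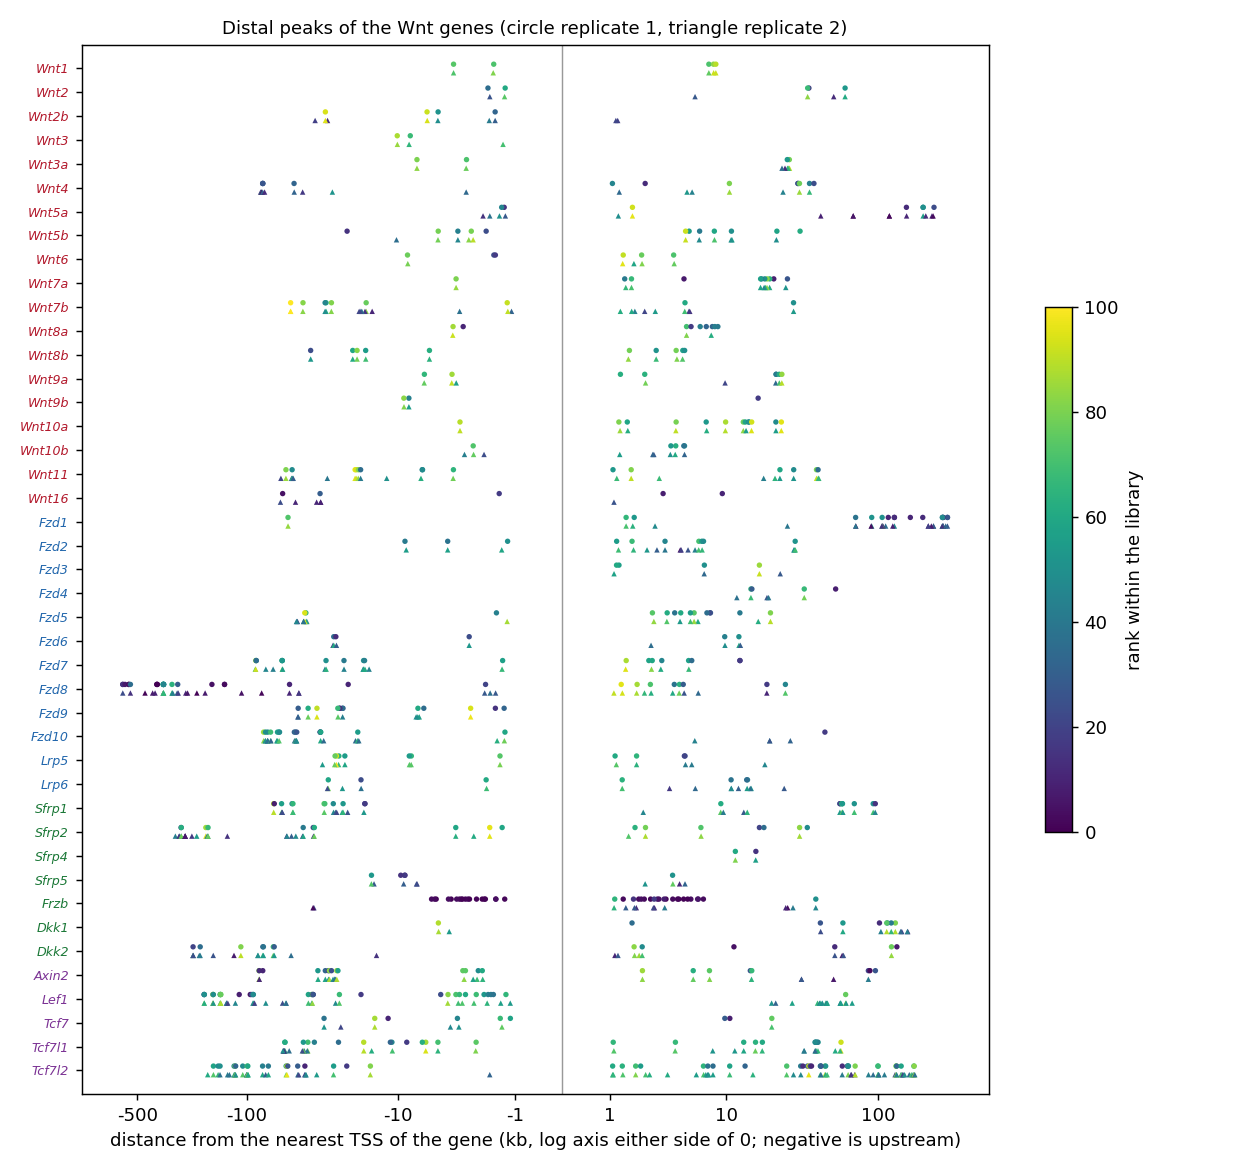
Position of every distal peak of the 43 Wnt genes relative to the nearest TSS of the gene (kb, log axis on either side of 0, negative upstream), coloured by rank within the library, with replicate 1 above replicate 2 in each row. The upstream peaks of Fzd8 reach beyond 500 kb, and the dense row of dark points at Frzb occurs in replicate 1.

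The strongest distal site of each gene, taken as the peak found in both libraries whose lower rank was highest, was ordered over the genes, and the 10 highest belonged to Wnt7b, Wnt11, Sfrp2, Wnt10a, Lrp5, Fzd5, Fzd9, Wnt2b, Fzd8 and Wnt5a, with Tcf7l2 next as the first effector. The site of Wnt7b, 52.2 kb upstream at chr15:85634576-85634725, had scores of 136 and 145 at ranks 99.9 and 99.9, above the promoter of every one of the 43 genes. The peak holds the start of a RefSeq long non-coding RNA, D130051D11Rik, which GENCODE M21 did not give as a TSS here, so it may count as a promoter in another annotation. The site of Wnt11, 19.7 kb upstream at chr7:98815336-98815485, had scores of 111 and 126, and a RefSeq proline transfer RNA gene, n-TPtgg8, starts within the peak. That of Wnt10a, 23.6 kb downstream at chr1:74816936-74817085 with scores of 110 and 124, lies 119 bp from a glycine transfer RNA gene, n-TGgcc3, and inside a VISTA enhancer that RefSeq lists as active in the heart. Thus 3 of the 4 strongest distal sites adjoin transcripts that the main annotation did not place there.

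That of Sfrp2 was 1.89 kb upstream at chr3:83764356-83764505, with scores of 112 and 124. Lrp5 had its site in an intron of its own at chr19:3641936-3642085, with scores of 106 and 134. For Fzd5 it lay 42.2 kb upstream at chr1:64779916-64780065, with scores of 103 and 127, and for Fzd9 2.82 kb upstream at chr5:135253976-135254125, with 102 and 132. At Wnt2b it was 31.0 kb upstream at chr3:104992836-104992985, with 101 and 122. Wnt5a had its site in an intron at chr14:28507616-28507765, with 96 and 125, and so had Tcf7l2 at chr19:55838156-55838305, with 96 and 128. All of these sites were as strong as many promoters of the same library, with ranks above 92 in both.

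The sequences of these sites are shown because they are the highest-ranked shared peaks over 1 kb from any GENCODE TSS, with 1 peak per gene, at the genes named above. Further peaks of the same genes were left out even where they ranked higher than some of those shown. The site of Fzd8, which lies in the exon of that gene and had scores of 109 and 115, is not shown. Each is the replicate 1 peak on the plus strand of GRCm38 (mm10), read from the NCBI genome sequence, and capitals mark an E-box, CAGATG or CAGCTG on either strand, the motif of basic helix-loop-helix factors. None of them holds an exact match to the TCF/LEF (CTTTGAT), homeodomain (TAATTA) or CTCF patterns counted below. Looser matches to these motifs were not searched for.
Wnt7b: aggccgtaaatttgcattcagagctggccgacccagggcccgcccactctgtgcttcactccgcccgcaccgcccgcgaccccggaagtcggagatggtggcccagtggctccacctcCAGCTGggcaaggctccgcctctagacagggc
Wnt11: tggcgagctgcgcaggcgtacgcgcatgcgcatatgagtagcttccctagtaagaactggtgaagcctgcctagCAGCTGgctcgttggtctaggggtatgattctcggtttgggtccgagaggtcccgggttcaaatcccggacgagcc
Sfrp2: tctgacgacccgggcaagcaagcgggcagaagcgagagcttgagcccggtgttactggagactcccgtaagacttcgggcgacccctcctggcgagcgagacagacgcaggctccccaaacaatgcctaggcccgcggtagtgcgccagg
Wnt10a: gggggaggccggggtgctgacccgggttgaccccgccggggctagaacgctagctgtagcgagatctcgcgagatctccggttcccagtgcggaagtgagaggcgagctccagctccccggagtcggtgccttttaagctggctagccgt
Lrp5: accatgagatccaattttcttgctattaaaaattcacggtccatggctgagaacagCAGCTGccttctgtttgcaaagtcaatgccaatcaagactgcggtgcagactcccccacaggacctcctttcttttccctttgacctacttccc
Fzd5: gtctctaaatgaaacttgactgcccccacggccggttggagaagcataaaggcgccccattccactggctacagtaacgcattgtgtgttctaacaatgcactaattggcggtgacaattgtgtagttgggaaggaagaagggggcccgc
Fzd9: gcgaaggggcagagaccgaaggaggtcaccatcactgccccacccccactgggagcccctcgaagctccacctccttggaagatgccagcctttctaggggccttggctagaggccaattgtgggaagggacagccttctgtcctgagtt
Wnt2b: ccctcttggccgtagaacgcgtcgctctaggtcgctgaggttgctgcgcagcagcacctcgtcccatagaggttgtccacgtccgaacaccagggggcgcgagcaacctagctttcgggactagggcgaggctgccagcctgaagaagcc
Wnt5a: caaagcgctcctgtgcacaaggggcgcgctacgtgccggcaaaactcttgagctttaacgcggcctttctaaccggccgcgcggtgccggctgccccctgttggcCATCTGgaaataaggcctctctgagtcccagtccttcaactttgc
Tcf7l2: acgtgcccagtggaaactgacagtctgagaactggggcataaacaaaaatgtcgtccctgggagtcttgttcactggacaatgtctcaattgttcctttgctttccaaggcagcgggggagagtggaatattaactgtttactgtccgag
The GC content of these peaks was 68.0% at Wnt7b, 66.7% at Wnt10a, 65.3% at Sfrp2 and 64.0% at Wnt2b, and 47.3% at Lrp5 and 48.0% at Tcf7l2, against a median of 49.3% over all distal peaks of replicate 1. The intron sites of Lrp5 and Tcf7l2 were thus near the median and the others above it.

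Some distal peaks lay near a start that RefSeq annotates. A RefSeq transcript or small RNA start lay within 1 kb of 38 of 549 and 45 of 699 distal peaks of the 43 genes (6.92% and 6.44%), against 4.49% and 4.03% of all distal peaks. The share was 10.3% and 9.29% at ligands, 2.61% and 3.47% at receptors, 4.67% and 5.08% at inhibitors and 9.72% and 7.65% at effectors, so receptors were below the share of all distal peaks. RefSeq also lists VISTA enhancers, regions tested in transgenic mouse embryos, and 4 of them held distal peaks of these genes. They are listed as active in the heart (Wnt10a), limb (Tcf7l1), neural tube (Fzd8) and nose (Lrp5), and none is listed for the eye.

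At Frzb the libraries disagreed in a particular way. Frzb, a secreted frizzled-related protein first described in cartilage, received 41 distal peaks in replicate 1 and 13 in replicate 2. Of the 41, 37 had ranks below 10 and lay close together at chr2:80431676-80453465, a stretch of 21.8 kb over the 5′ part of the gene and its upstream flank. The 41 scores ran between 2 and 40 with a median of 7, and 5 of these peaks were overlapped in replicate 2, where the 13 scores ran between 20 and 61 with a median of 32. The gene also had 9 promoter peaks in replicate 1 and 4 in replicate 2. Without Frzb, the distal peaks of the other 6 inhibitors had median ranks of 50.6 and 47.5, so the low inhibitor median of replicate 1 was set by this gene. Among all genes with at least 20 distal peaks, 35 of 1520 in replicate 1 and 12 of 2328 in replicate 2 had at least 80% of them at ranks below 10. What made the dense weak peaks was not tested.

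**Figure D5:**
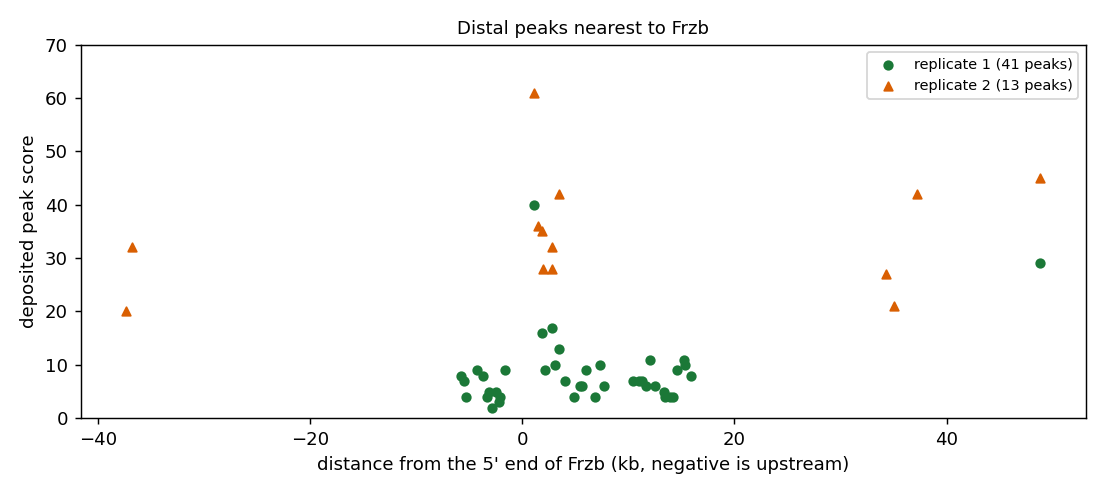
Deposited score of each distal peak nearest to Frzb against its distance from the 5′ end of the gene (kb, negative upstream), in replicate 1 (circles, 41 peaks) and replicate 2 (triangles, 13 peaks). Most replicate 1 peaks crowd below a score of 20 around the 5′ end, and the replicate 2 peaks are fewer and have scores of 20 or more.

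The letters CTTTGAT were taken as the TCF/LEF motif, without other forms of it. The share of peaks with this motif on either strand was counted. It was found in 4 of 145 and 9 of 183 distal peaks of ligands (2.76% and 4.92%), 2 of 153 and 2 of 202 of receptors, 1 of 107 and 0 of 118 of inhibitors and 8 of 144 and 7 of 196 of effectors (5.56% and 3.57%), against 2.28% and 2.39% of all distal peaks. Over the 43 genes the share was 2.73% and 2.58%, near that of all distal peaks. Among promoter peaks it was found in 4 of 137 and 4 of 166 at the 43 genes, against 1.25% and 1.39% of all promoter peaks, and it recurred in both libraries at Axin2, Tcf7 and Wnt16. A match is a description of the letters and not a binding site, and the counts are of a few peaks. Peaks that overlap each other were each counted, as at chr19:55806696-55806845 and chr19:55806716-55806865 (Tcf7l2, replicate 1).

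The Axin2 match, in an intron near the 5′ end of the gene at chr11:108921116-108921265, had peak scores of 77 and 93. In Tcf7 the match lay 357 bp upstream of a TSS, in a peak at chr11:52283316-52283465 that was also the strongest promoter peak of the gene, with scores of 118 and 116. Matches in effector distal peaks of replicate 1 that a replicate 2 peak overlapped were found at chr11:52284416-52284565 (Tcf7), chr19:55694796-55694945 (Tcf7l2), chr3:130922936-130923085 (Lef1) and chr3:131072716-131072865 (Lef1). Their scores were 43 and 76 at Tcf7, 21 and 40 at Tcf7l2, 24 and 80 at the far Lef1 site and 53 and 91 at the near one, which lies 37.7 kb upstream. The Tcf7l2 match, at chr19:55694844-55694850, lies outside the overlapping replicate 2 peak, which starts at 55694876. The 2 overlapping Tcf7l2 peaks had ranks of 29.3 and 37.5. The 6 replicate 1 peaks below were picked after their matches were seen. They are shown because they hold the motif of the factors that the effector genes encode, with the TCF/LEF match in capitals. Build, strand and source are as above.
Axin2 promoter: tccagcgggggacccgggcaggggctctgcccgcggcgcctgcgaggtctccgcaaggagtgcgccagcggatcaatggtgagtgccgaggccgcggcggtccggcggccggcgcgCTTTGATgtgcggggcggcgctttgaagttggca
Tcf7 promoter: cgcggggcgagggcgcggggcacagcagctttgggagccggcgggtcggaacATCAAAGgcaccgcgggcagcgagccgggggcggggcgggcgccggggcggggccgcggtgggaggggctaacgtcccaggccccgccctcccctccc
Tcf7 distal: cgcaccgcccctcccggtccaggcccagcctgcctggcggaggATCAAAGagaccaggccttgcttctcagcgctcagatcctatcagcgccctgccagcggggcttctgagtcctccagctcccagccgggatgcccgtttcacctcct
Tcf7l2 distal: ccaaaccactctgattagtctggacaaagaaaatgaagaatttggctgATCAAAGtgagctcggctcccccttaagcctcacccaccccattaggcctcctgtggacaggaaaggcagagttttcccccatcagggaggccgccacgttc
Lef1 far distal: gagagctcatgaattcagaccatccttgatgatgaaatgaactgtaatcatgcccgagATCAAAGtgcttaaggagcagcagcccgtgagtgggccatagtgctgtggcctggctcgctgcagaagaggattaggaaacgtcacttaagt
Lef1 near distal: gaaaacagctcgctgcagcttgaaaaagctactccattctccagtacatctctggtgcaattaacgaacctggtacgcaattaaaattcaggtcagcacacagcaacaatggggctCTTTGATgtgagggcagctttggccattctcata
In the Axin2 peak and the near Lef1 peak the letters read CTTTGAT on the plus strand, and in the other 4 they read ATCAAAG.

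Other motifs were counted in the same way. The homeodomain core TAATTA was found in 24 of 549 and 54 of 699 distal peaks of the 43 genes (4.37% and 7.73%), against 5.77% and 7.17% of all distal peaks. An E-box was found in 141 and 195 of them (25.7% and 27.9%), against 28.6% and 29.5%. The CTCF core was found in 23 and 24 (4.19% and 3.43%), against 5.06% and 3.94%. For the 43 genes as a whole these shares were near those of all distal peaks. By class, CTCF was found in 7.59% and 6.56% of distal peaks at ligands, 2.61% and 1.49% at receptors, 5.61% and 5.93% at inhibitors and 1.39% and 1.02% at effectors. TAATTA was found in 2.07% and 3.28% at ligands, 5.88% and 7.92% at receptors, 3.74% and 11.02% at inhibitors and 5.56% and 9.69% at effectors.

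A further 54 genes of the pathway, listed by role, give the surroundings of the 43. Of these, 49 (90.7%) were open in both libraries, against 68.8% of all genes, and 33 (61.1%) had promoter ranks of at least 90 in both, against 47.7% of all genes. The median CpG ratio of the 54 was 0.732, against 0.552 over all genes, and these shares are not matched for it. All 12 cytoplasmic components, such as Ctnnb1 (beta-catenin), Apc and the Dvl genes, had such ranks. Porcn and Wls, which act in secretion, and Notum, which was listed with them, were open in 3 of 3 cases, none with a rank of at least 90 in both libraries. Of the R-spondin system, which sets the level of Frizzled at the cell surface, 8 of 9 were open and 3 were strong. Of the other secreted inhibitors and their receptors, 5 of 9 were open and 3 were strong. Of the alternative receptors and polarity genes, 11 of 11 were open and 7 were strong, and of the nuclear cofactors 10 of 10 were open and 8 were strong. The 5 with the highest lower rank were the co-repressors Tle1 (ranks 99.96 and 99.92) and Tle4 (99.86 and 99.96), the kinases Gsk3b (99.7 and 99.9) and Csnk1a1 (99.2 and 99.1) and the ubiquitin ligase Znrf3 (99.6 and 99.1). Rspo1, Dkk4 and Sost had no promoter peak in either library.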

How the data were processed

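The peak and hotspot lists of both libraries are on mm10 per the labels. Calls were made per replicate, according to the deposited file lists. Aligner and caller: not given in the sources used here. For each 150 bp peak the score is the authors' deposited value and its meaning is not stated. The −log10 false discovery rate of each hotspot is deposited with a ceiling of 100. No read numbers were used, so depth is unknown. Replicate 1 was run on 1 more sequencer model than replicate 2, per the labels, so sequencer and replicate cannot be told apart.

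Exact duplicate lines (34 and 56) were removed. Peaks that overlapped the previous peak (10215 and 8779) were kept, so some bases count in more than 1 peak. Scores were ranked within each library, and peaks were assigned to genes of GENCODE M21 by TSS (any transcript) with Python 3.11.15, pandas 2.3.3 and numpy 2.4.6. The steps were checked on planted peaks. An overlap of 1 bp counted as shared. In 12.1% and 7.80% of peaks the score was in decimal form, and these were kept.

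All 43 genes are named. A marker on the list is not reported here. By rule, the strongest shared distal peak is described for the 10 genes with the highest lower rank and the first of each class, and other pathway genes by the 5 highest lower ranks or by absence of a peak. Further distal peaks were picked after their values were seen. Members, lists and motifs were chosen with earlier results of these data known. Genes are not replicates, so no p-value is given.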

Additional observations from a re-analysis of the deposited data

How the results depend on the processing

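The open-promoter counts and the promoter ranks mostly kept their values under the other settings. Of 157 values recomputed under them, 22 moved by more than their limit and 135 did not. The 135 overstate stability, since some of them could not move. For a median or the shared percentage, the limit was the standard deviation of the 2 library values. A median from 1 library alone always lies within that limit of the mean of both. Settings that alter only distal peaks or their sharing leave every promoter value unchanged. Open-promoter counts and the distal total were judged by their ratio to the main value instead. For the median distal count of inhibitors, 13 in both libraries, that limit was 0, so any change counted as moved. The median promoter rank of ligands (82.1 as the mean of the libraries) was 80.6 with a 500 bp promoter window and 76.9 with the 5′ end of each gene alone. Median distal counts (8 per ligand, 14 per receptor, 13 per inhibitor, 30 per effector) were 4.50, 6.50, 5 and 18.5 among the peaks of above-median score, and 2.50, 6.25, 7.50 and 15.5 for peaks over 10 kb from any TSS. The total of 624 became 316.5 and 323.5 in those settings, and the shared percentage of 59.1% became 75.2% above the median score. Where sharing needed an overlap of 75 bp, that percentage fell to 49.2%, a shift within its limit. Ligand medians were 6 with a 2 kb window and 10 with the 5′ end alone. Inhibitor medians were 14.5 with a 500 bp window, 11.5 with a 2 kb window, 21 with the 5′ end alone, 11.5 without decimal scores, 10.5 within 100 kb, 14.75 without Frzb and 11.5 with RefSeq TSSs added. The last pair of settings was chosen after seeing the data. The cause of these shifts was not tested beyond the smaller number of peaks that the stricter settings keep. With 1 library alone the ligand promoter count was 16 in either case, median promoter ranks ranged over 81.1 to 83.1 in ligands, 96.5 to 97.5 in receptors, 87.0 to 91.1 in inhibitors and 95.4 to 95.9 in effectors, and the distal total was 549 to 699. The shared percentage needs both libraries.

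No paired analysis was possible because there is 1 group of samples. With no read numbers, an absent peak cannot be told apart from one below the caller's threshold. The 2 libraries differ in number of peaks. Assignment by nearest TSS does not show which gene a site acts on.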
